A study of Mus musculus with 6 samples.

Results

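The cytosolic ribosomal protein genes encode the proteins of the large and the small ribosomal subunit. They were taken from the bulk RNA-seq of mouse hematopoietic stem cells (HSCs) by symbol: Rpl or Rps followed by a number, with Rplp0, Rplp1, Rplp2 and Rpsa added and pseudogene rows with -ps in the symbol left out. Of 34745 genes in the table, 84 had such a symbol, and 79 of them reached 50 counts summed over the 6 libraries. All 79 also passed the filter on low counts that left 12513 genes for testing. They were 42 genes of the large subunit, 30 of the small subunit, the 3 P stalk genes and 4 paralogs (Rpl7l1, Rpl22l1, Rps27l and Rps4l). Each gene was chosen by its symbol and its summed count; the set itself was taken up with KO and WT results of these libraries known, so its shared direction is a description. The lowest counts inside it were 94 for Rps12, 134 for Rps13 and 136 for Rps27. The 5 genes outside it were Rps29 and Rpl23a with 23 counts each, Rpl3l with 8, Rpl39l with 1 and Rpl10l with 0.

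The study examined what Med23, a subunit of the Mediator complex that links transcription factors to RNA polymerase II, does in HSCs. The 3 WT libraries came from C57BL/6 mice with floxed Med23 and no Cre, labelled WT(Med23floxp/flowp), and the 3 KO libraries from floxed mice that also carried Mx1-cre, labelled KO(Mx1-cre;Med23floxp/flowp). Adult bone marrow was sorted for lineage-negative Sca1+ cKit+ cells that were CD150+CD34-CD48-. Mx1-cre is switched on by interferon, here through injected poly(I:C) per the study's methods, and it also acts in cells outside the blood; the labels do not say which mice of these libraries were injected. Each library is a bulk measurement, so fewer cells of a type and less RNA per cell cannot be told apart. The labels do not say whether the libraries of a group came from separate mice, so p-values measure the spread between these libraries.

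Ribosomal proteins are made in nearly fixed proportions, and each ribosome holds a single copy of most of them. Their mRNAs belong to the TOP class, which begins with a run of pyrimidines that the mTOR pathway uses to switch their translation on and off. HSCs are known for a low rate of protein synthesis, and losing 1 copy of a ribosomal protein gene such as Rps19 or Rps14 disturbs red cell formation in people.

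Reads counted on genes ranged from 3537269 to 8131344 per library, so that 3 counts, the smallest signal treated as detected, were worth 0.369 to 0.848 CPM, the unit of counts per library of equal size. For Med23 itself the 3 WT libraries gave 47.4, 70.5 and 24.0 CPM in order of replicate number, and the KO libraries 31.5, 29.7 and 36.7 CPM. Its groups overlapped, with the library labelled WT replicate 3 below every KO library, and its log2 fold change was -0.54 ± 0.41 (SE) with an adjusted p of 0.989 by edgeR's quasi-likelihood test. Of the HSC marker list, 15 of 16 genes were tested, the summed level was 3287 to 3880 CPM in WT and 3618 to 3736 CPM in KO, and Cd48 did not exceed 3.43 CPM. The sum joins genes that moved in opposite directions, with 8 lower and 7 higher estimates in KO and 0 called. Without overlap, 3 lay below and 2 above, where 6.15% and 6.25% of all genes did. Skeletal muscle genes summed to 336, 245 and 566 CPM in WT and 21.0, 60.9 and 38.3 CPM in KO, and 3 of 22 tested were called lower in KO (Acta1, Actc1 and Myh3). Granulocyte genes summed to 169 to 316 CPM in WT and 420 to 700 CPM in KO, erythroid genes to 1318 to 1736 and 1121 to 1377 CPM, and lymphoid genes to 84.7 to 119 and 78.9 to 94.9 CPM. These sums rest on few genes. Car2 held most of the erythroid sum, at 1246 to 1607 CPM in WT and 1054 to 1307 CPM in KO. Prtn3 was at 82.7 to 141 and 303 to 354 CPM, and Mpo reached 175 CPM in KO replicate 3 alone. Of 5 granulocyte genes tested, 4 had a higher estimate and 1 a lower one, with 0 called. The 4 Y-linked genes Ddx3y, Uty, Kdm5d and Eif2s3y summed to 1 count in WT replicate 3, to 0 in KO replicate 3, and to 1036 to 1855 in the other 4 libraries. Xist had 4819 counts in WT replicate 3, 7853 in KO replicate 3 and 8 to 111 in the other 4. This is the pattern of female cells in the replicate 3 libraries and of male cells in the other 4.

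Promoter windows of 8 members show a pyrimidine run near the start of transcription, taken from the P stalk, the lowest and highest estimates, the genes chosen for their roles and a paralog pair. RefSeq sequence of GRCm38.p6 was used, and the capitals mark the longest run of C and T; positions count from 1 at the annotated first base of the mRNA, with negative positions before it. The runs start at -5 (Rplp2), -1 (Rps6), -2 (Rps18), 9 (Rps12), -2 (Rpl38), -4 (Rpl27a), -2 (Rps27) and -12 (Rps27l). The Rps27l run, 9 bases long, ends before the first base of the mRNA, and the Rps12 run begins after it. Each window covers the end of the promoter and the first bases of the 5′ UTR, or the 5′ UTR alone for Rps12.
Rplp2, chr7:141447640-141447669, plus strand: tcagcgTCTTCCTTTCgccgccggacgccg
Rps6, chr4:86857345-86857374, minus strand: gtcgggCCTCTTTTTCgtgacgcctcccag
Rps18, chr17:33955644-33955673, minus strand: cttccgCTCTCTCTTCCacaggaggcctac
Rps12, chr10:23787178-23787207, minus strand: cgccggCCTTTTCCCCTgccgccgccgact
Rpl38, chr11:114668572-114668601, plus strand: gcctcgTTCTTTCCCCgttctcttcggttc
Rpl27a, chr7:109519185-109519214, plus strand: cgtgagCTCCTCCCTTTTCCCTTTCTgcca
Rps27, chr3:90213627-90213656, minus strand: ctttcgCTCCTTTCCggcggtgacgacctc
Rps27l, chr9:66946068-66946097, plus strand: tctccaCTCCTCCCCgccgcctctatcccg

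RefSeq promoter windows of 250 bases before and 50 bases after the start were found for 60 of the 79 members. A sense-strand run of at least 8 C or T between positions -20 and 50 was present in 47 of the 60 (78.3%) and in 28.5% of all 27025 genes with such a window. The 8 bases CCGGAAGT, a core bound by ETS family factors, were found on either strand in 12 of the 60 (20%) and in 4.31% of all genes. The letters CTTTCC, which can lie inside a pyrimidine run, were found in 51.7% and 29.3%, CTCTTT, which can lie there too, in 46.7% and 25.6%, and AAGATGGC, a YY1 core, in 10% and 3.19%. A match describes the letters and does not show that a factor bound there.

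The ETS core stood at these places in the 6 named genes that hold it, with the core in capitals. Its first base lay at -75 and -157 in Rps18, at -91 in Rps6, at -56 in Rpl41 and at -189 in Rpsa, where it was on the antisense strand, all upstream of the start. In Rps27l, at 10, and in Rpl11, at 7, it lay in the 5′ UTR. Rpl11 was the holder with a higher estimate in KO.
Rps18, chr17:33955722-33955751, minus strand: agaagcaatttCCGGAAGTggacctccggg
Rps18, chr17:33955804-33955833, minus strand: agaaggccgaaCCGGAAGTtatagctccgg
Rps6, chr4:86857440-86857469, minus strand: ttaatctacgcCCGGAAGTaacgcccctct
Rpl41, chr10:128549206-128549235, minus strand: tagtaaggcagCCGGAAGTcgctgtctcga
Rpsa, chr9:120127566-120127595, plus strand: tcgccccagctACTTCCGGcctggggtctg
Rps27l, chr9:66946084-66946113, plus strand: ccgcctctatcCCGGAAGTtgctgaggggc
Rpl11, chr4:136053369-136053398, minus strand: aggccacggggCCGGAAGTctccctctctc

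Taken as a share of all gene counts, the 79 members made up 1.99, 1.97 and 2.57% of WT replicates 1 to 3 and 1.496, 1.79 and 2.08% of KO replicates 1 to 3. The means were 2.18% ± 0.343 and 1.79% ± 0.294 (SD, n = 3), and the KO mean was 0.822 times the WT mean. The groups overlapped, since KO replicate 3 stood above WT replicates 1 and 2. WT replicate 3 was the highest library for 68 of the 79 genes and KO replicate 1 the lowest for 51.

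**Figure D1:**
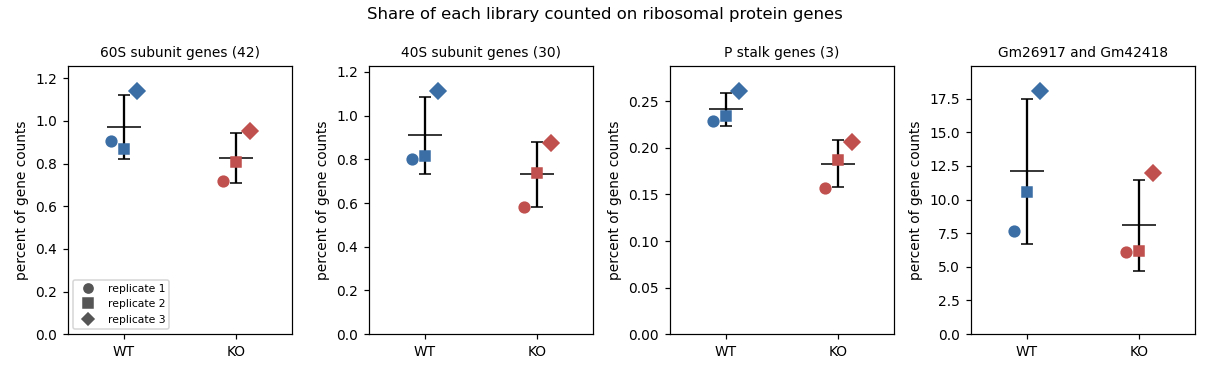
Percent of all gene counts per library (y axes, each from 0) on the genes of the large subunit, the small subunit and the P stalk and on Gm26917 with Gm42418, in WT (blue) and KO (red); markers are replicates, black lines the mean and SD of 3. The P stalk share runs from 0.229 to 0.261% in WT and from 0.157 to 0.206% in KO without overlap, while in the other panels the groups overlap. Most of the P stalk share is the single gene Rplp0.

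The large subunit took 0.904, 0.868 and 1.14% of counts in WT and 0.719, 0.810 and 0.952% in KO. The small subunit took 0.801, 0.815 and 1.11% in WT and 0.580, 0.739 and 0.875% in KO. Both overlapped between groups, with replicate 3 the highest library of each group. The P stalk took 0.229, 0.235 and 0.261% in WT and 0.157, 0.187 and 0.206% in KO, and every KO library lay below every WT library. This share is mostly Rplp0, with 62414 counts against 3084 for Rplp1 and 1584 for Rplp2, so it largely restates 1 gene. Counts on the small subunit per count on the large subunit were 0.886, 0.939 and 0.976 in WT and 0.807, 0.913 and 0.919 in KO, so the balance of the subunits overlapped between groups.

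Other measures moved with these shares, and their part in the result was not tested. Gm26917 and Gm42418, rows that took more counts than all members together, held 7.66, 10.6 and 18.1% of counts in WT and 6.11, 6.14 and 12.0% in KO. With these rows and the mitochondrially encoded genes left out of the total, the KO mean of the member share was 0.782 times the WT mean. Genes other than members with under 1000 nt of length held 2.20 to 2.67% in WT and 1.94 to 2.56% in KO, a ratio of 0.939. Rows of ribosomal protein pseudogenes held 3.02 to 3.04% of member and pseudogene counts together in WT and 2.72 to 2.86% in KO, without overlap.

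Gene by gene, the estimate for KO was lower than for WT in 70 of the 79 members (88.6%), against 50.5% of all 12513 genes tested. The median log2 fold change was -0.30 for the members and -0.01 for all genes, with members between -1.09 and 0.93. No member was called at an adjusted p under 0.05 by edgeR, and 0.0719% of all genes were, 0.0559% lower and 0.016% higher in KO; adjusted p ran from 0.768 to 0.9996. At an unadjusted p under 0.05 there were 3 members, Rps18, Rplp1 and Rplp0, each lower in KO, against 5.71% of all genes in either direction and 2.77% lower in KO. DESeq2 called 0 members and 0.96% of all genes, with 4 members and 6.74% of all genes at an unadjusted p under 0.05. Limma voom called 0 members and 0% of all genes, with 2 members and 7.58% of all genes at an unadjusted p under 0.05. Every KO library lay below every WT library for 8 members (10.1%), against 6.15% of all genes, and above for none, against 6.25%. The 8 were Rps12, Rps18, Rps15, Rps25, Rplp0, Rplp1, Rpl27 and Rpl30; the last and Rps25 were named after their values were seen.

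**Figure D2:**
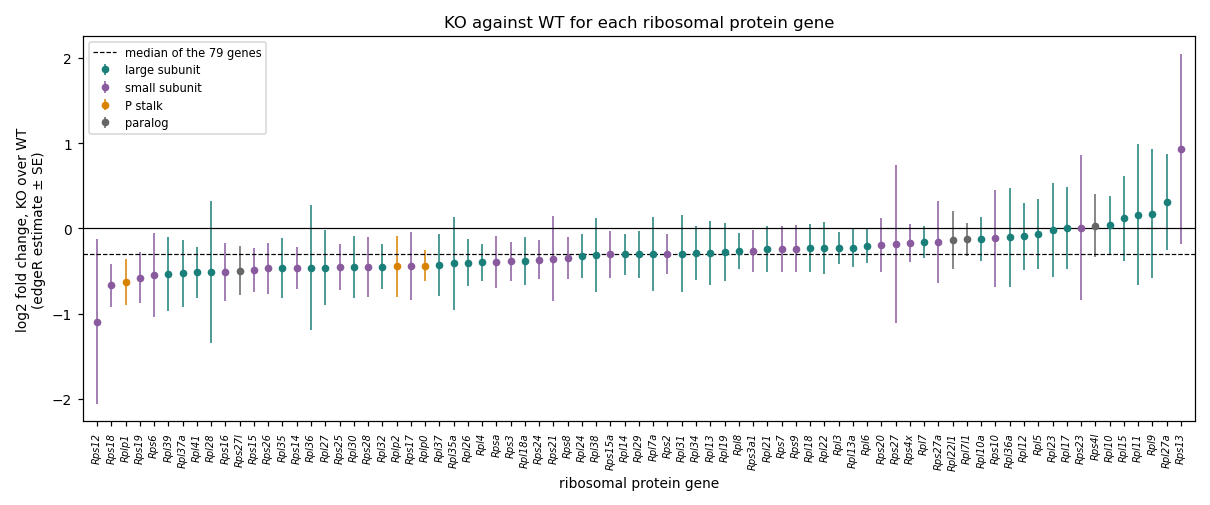
Log2 fold change, KO over WT, with its SE from edgeR (y axis) for 77 of the 79 genes (x axis, in order of the estimate), coloured by class; the dashed line is the median of all 79, -0.30. Most points lie below 0, 68 of 77, and the genes with the widest error bars stand at both ends of the order.

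The size of the shift depended on single libraries. Without WT replicate 3 the median was -0.12 and 57 members had a lower estimate; without KO replicate 1 the median was -0.18, with 68 lower; and without KO replicate 3 it was -0.55, with 75 lower. Leaving out WT replicate 1, WT replicate 2 or KO replicate 2 gave -0.39, -0.41 and -0.28. The replicate 3 libraries, which lacked Y-linked counts, were the highest of their group, and leaving out one of them left the other. Among the 2 WT and 2 KO libraries with Y-linked counts the median was -0.29 with 70 members lower, and between the replicate 3 libraries, with no replicate check, it was -0.35 with 72 lower. All genes tested had a median of 0.00 and 0.02 in these comparisons, which were added after the data were seen.

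**Figure D3:**
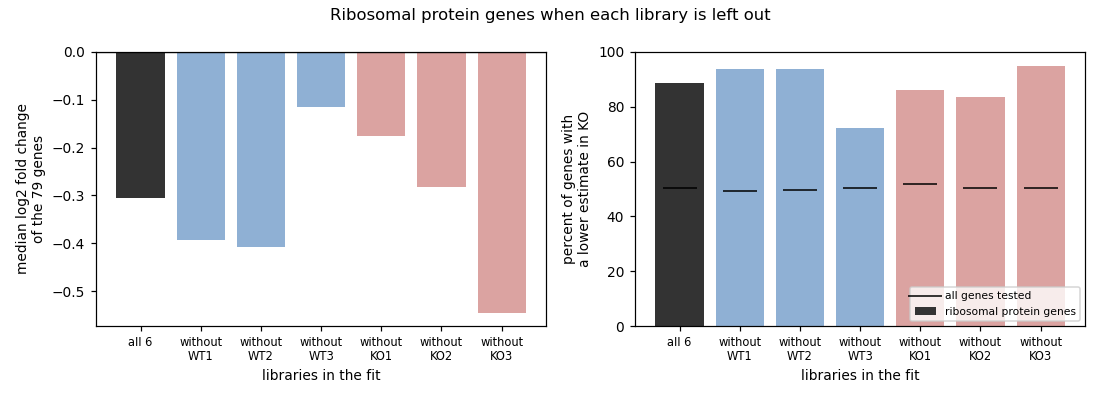
Median log2 fold change of the 79 genes (left, y axis) and percent of genes with a lower estimate in KO (right, y axis) with all 6 libraries and with each left out (x axes); black dashes on the right are all genes tested. The median stays below 0 and ranges from -0.55 without KO replicate 3 to -0.12 without WT replicate 3, while all genes stay near 50% lower.

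Rplp0 encodes the scaffold of the P stalk, the arm of the large subunit that recruits elongation factors, and Rplp1 and Rplp2 encode the acidic proteins that bind it in pairs. All 3 had lower estimates in KO. Rplp0 (ENSMUSG00000067274, chromosome 5 from 115559467 to 115563727 in GRCm38) had 62414 counts, the most of any member. It was at 2047, 2190 and 2613 CPM in WT and 1406, 1678 and 1973 CPM in KO, without overlap. The log2 fold change was -0.44 ± 0.18 (SE) with an adjusted p of 0.821 by edgeR.

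Rplp1 (ENSMUSG00000007892, chromosome 9 from 61913284 to 61914542) was at 110, 99.1 and 158 CPM in WT and 68.8, 73.8 and 95.3 CPM in KO. Every KO library was below every WT library, the log2 fold change was -0.62 ± 0.27, and the edgeR adjusted p was 0.858. It also took less of the ribosomal protein total in KO: per 1000 member counts it had 5.71, 5.06 and 5.65 in WT and 4.79, 4.31 and 4.42 in KO, again without overlap. Rplp0 had 93.3 to 112 per 1000 member counts in WT and 91.5 to 97.9 in KO, which overlapped. Rplp2 was at 61.1, 44.8 and 74.5 CPM in WT and 31.9, 39.0 and 61.3 CPM in KO, which overlapped, with a log2 fold change of -0.45 ± 0.35.

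The small subunit decodes the mRNA. Of its 30 genes 28 had a lower estimate in KO, with a median log2 fold change of -0.36, and 4 (13.3%) were below without overlap, against 6.15% of all genes. Rps18, at the head of the small subunit next to the P site tRNA, had the smallest p of all members. It was at 325, 352 and 488 CPM in WT and 198, 211 and 324 CPM in KO. KO replicate 3 stood just below WT replicate 1, and the log2 fold change was -0.67 ± 0.25 with an edgeR adjusted p of 0.768. An exact permutation test of 3 against 3 cannot give less than 0.1. Groups without overlap always give that value, so the 0.1 for each of the 8 genes adds nothing to the lack of overlap.

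Rps15, a small subunit protein near the decoding centre, was at 131, 127 and 194 CPM in WT and 88.8, 106 and 127 CPM in KO. WT replicate 2 and KO replicate 3 were nearly level, and the log2 fold change was -0.49 ± 0.26 with an adjusted p of 0.932 by edgeR. Rps12 had the lowest estimate of all, -1.09 ± 0.97, but on few counts: 20, 23 and 20 in WT and 10, 10 and 11 in KO.

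Rps19 and Rps14 are the small subunit genes whose loss of 1 copy is linked to Diamond-Blackfan anemia and to the 5q- syndrome. Rps19 was at 536, 561 and 980 CPM in WT and 310, 502 and 581 CPM in KO. The groups overlapped because KO replicate 3 exceeded WT replicates 1 and 2, and the log2 fold change was -0.58 ± 0.30. Rps14 was at 654, 642 and 986 CPM in WT and 415, 562 and 679 CPM in KO, also with overlap, and its log2 fold change was -0.46 ± 0.25.

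Rps6 carries the phosphorylation sites read as a sign of mTOR activity. It was at 13.5, 18.9 and 21.6 CPM in WT and 15.1, 12.5 and 9.27 CPM in KO, overlapping, with a log2 fold change of -0.54 ± 0.49 on 480 counts. Rpsa, which also occurs as the laminin receptor precursor, was at 159, 145 and 272 CPM in WT and 109, 133 and 196 CPM in KO, overlapping, with -0.39 ± 0.31. Neither passed the edgeR test, at an adjusted p of 0.989 for each. Rps13 had the highest estimate of all members, 0.93 ± 1.12, on 134 counts, and its groups overlapped, from 0.979 to 6.54 CPM in WT and from 1.41 to 10.5 CPM in KO. Its estimate was 2.20 without WT replicate 1, 0.51 without WT replicate 2 and 0.19 without KO replicate 1.

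The large subunit forms the peptide bonds. Of its 42 genes 36 had a lower estimate in KO, with a median log2 fold change of -0.29, and 2 (4.76%) were below without overlap, under the 6.15% of all genes. Rpl27 was at 20.8, 19.7 and 17.6 CPM in WT and 13.1, 15.0 and 14.1 CPM in KO. These groups were tight, and the log2 fold change was -0.46 ± 0.44 with an edgeR adjusted p of 0.992 on 538 counts.

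Rpl8, Rplp0, Rpl4 and Rpl14 were among the 5 members of highest level per length, at a mean of 1417, 703, 643 and 539 FPKM over the 6 libraries. Their log2 fold changes were -0.26, -0.44, -0.40 and -0.30 in that order. Rplp0 alone of these 4 was without overlap. Rpl4, for example, was at 1117, 812 and 1210 CPM in WT and 721, 702 and 956 CPM in KO.

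Rpl5 and Rpl11 hold Mdm2 in check as part of a free particle with the 5S rRNA, which ties ribosome assembly to p53. Rpl5 was at 28.2, 27.1 and 44.6 CPM in WT and 21.6, 30.5 and 43.1 CPM in KO, for which the log2 fold change was -0.07 ± 0.41. Rpl11 was at 5.92, 6.00 and 3.69 CPM in WT and 3.43, 5.26 and 8.87 CPM in KO, 0.16 ± 0.83 on 180 counts. Both overlapped widely. Rpl38, which patterning of the skeleton depends on in mice, was at 27.0, 30.8 and 53.3 CPM in WT and 18.0, 29.6 and 41.7 CPM in KO, with -0.31 ± 0.44. Rpl41, one of the smallest proteins of the cell, was at 267, 299 and 475 CPM in WT and 163, 242 and 325 CPM in KO, overlapping, with -0.51 ± 0.30.

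The other high estimates of the large subunit were 0.31 ± 0.56 for Rpl27a, 0.17 ± 0.76 for Rpl9 and 0.12 ± 0.50 for Rpl15. Rpl27a alone ranged from 9.18 to 52.6 CPM within WT. None of these estimates exceeded its SE.

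Single libraries also moved the estimates of single genes by over 1.5 times. Without WT replicate 3 they were -0.40 for Rplp1, -0.26 for Rplp2, -0.27 for Rps15, -0.24 for Rps19, -0.23 for Rps14, -0.06 for Rpsa, -0.08 for Rpl8, -0.08 for Rpl14 and -0.22 for Rpl41. Without KO replicate 1 they were -0.26 for Rplp2, -0.35 for Rps19, -0.29 for Rps14, -0.22 for Rpsa, -0.17 for Rpl8, -0.13 for Rpl14 and -0.29 for Rpl41. Without KO replicate 3 they were -0.755 for Rplp2, -0.66 for Rpsa, -0.40 for Rpl8, -0.48 for Rpl14 and -0.77 for Rpl41. The estimates of Rplp0, Rps18, Rps12, Rps6, Rpl27 and Rpl4 moved by less than 1.5 times with any 1 library left out.

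**Figure D4:**
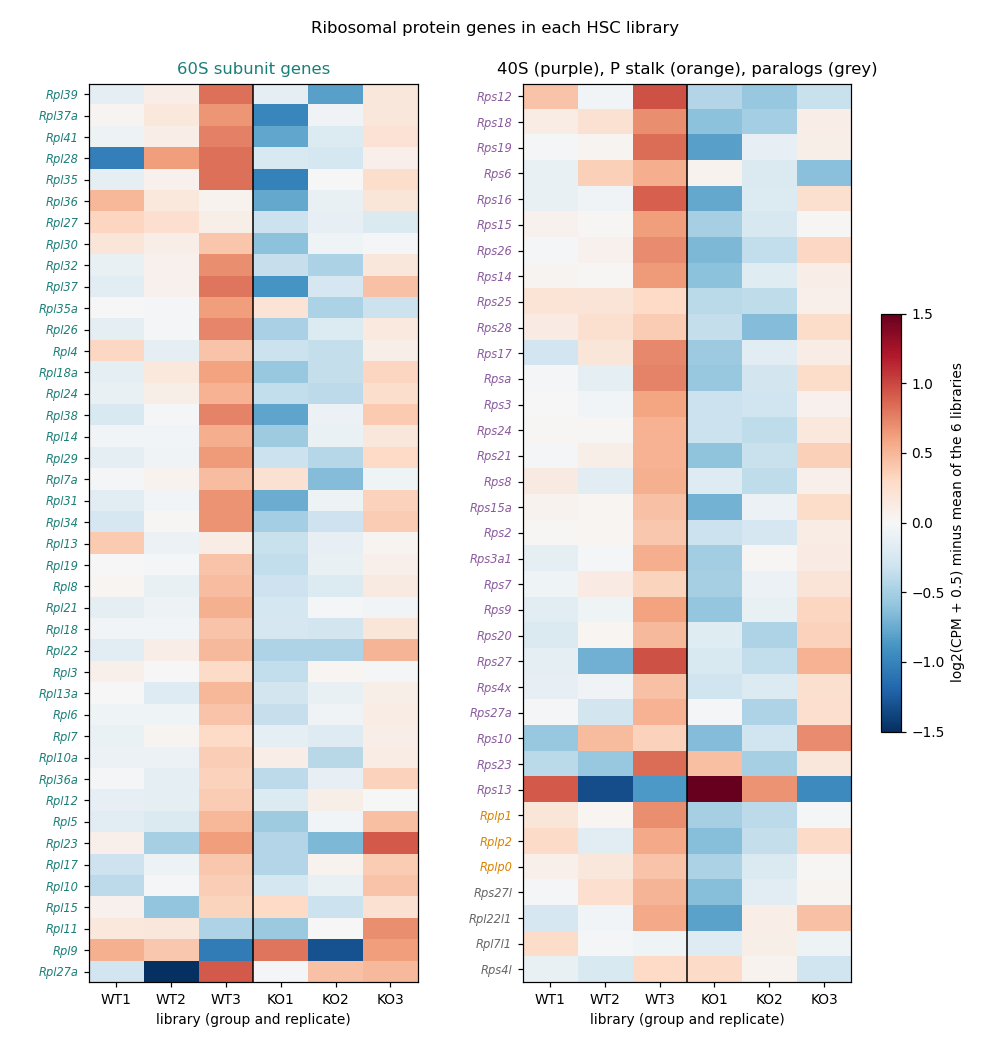
Log2(CPM + 0.5) of 77 of the 79 genes minus its mean over the 6 libraries (colour, red high and blue low), with genes in rows by class and libraries in columns. WT replicate 3 is the reddest column and KO replicate 1 the bluest, and Rps13, Rpl9 and Rpl27a break the pattern.

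The spread of the estimates followed depth. The 19 members with 10000 counts or more all had a lower estimate in KO, between -0.58 and -0.16 with a median of -0.36 and a median SE of 0.23. Of the 34 members with 1000 to under 10000 counts, 33 had a lower estimate, with a median of -0.37 and a median SE of 0.30. Of the 26 with under 1000 counts, 18 did, with a median of -0.14 and a median SE of 0.52. Members of 1 library share its depth and composition, so these genes are not independent replicates.

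Many ribosomal protein genes have near-identical processed pseudogenes, and reads that match both can be lost or split in counting. Of the 50-base stretches of the mRNA, 41.8% in the median of the members with 10000 counts or more also occurred in another gene, against 71.9% in the median of those under 1000. Rpl8 shared 7.86% and had 37857 counts, while Rps27 shared 98.6%, Rps12 85.7%, Rps6 84.6% and Rps13 83% and had few. The relation was loose, since Rpl3 shared 85.6% and still had 25184 counts. Levels of the heavily shared genes are therefore uncertain.

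**Figure D5:**
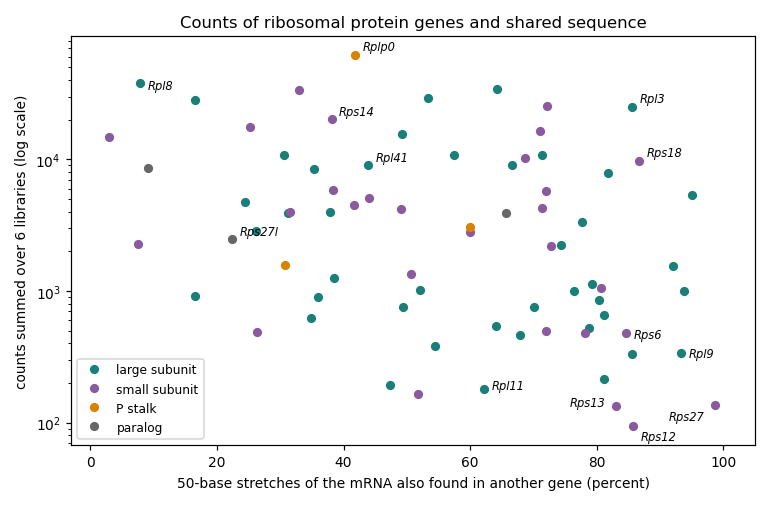
Percent of 50-base stretches of the mRNA, for 76 genes, also found in another gene (x axis) against counts summed over the 6 libraries (y axis, log scale), coloured by class. Rpl8, with 7.86% shared, stands at 37857 counts and Rps27, with 98.6%, at 136, but Rpl3, with 85.6%, stands at 25184.

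Some ribosomal protein genes have a paralog, and whether it takes their place was not tested. Rps27l was at 47.3 ± 5.89 FPKM in WT and 34.7 ± 6.97 FPKM in KO (SD, n = 3), far above Rps27 at 1.69 ± 1.03 and 1.55 ± 0.531 FPKM; nearly all of the Rps27 sequence was shared with other genes. Rps27l was at 75.6, 91.2 and 109 CPM in WT and 48.8, 68.3 and 78.2 CPM in KO, overlapping, with a log2 fold change of -0.50 ± 0.29. Rpl22 and Rpl22l1 were close to level at 25.4 ± 4.39 and 28.8 ± 7.02 FPKM in WT and 22.3 ± 8.32 and 27.1 ± 9.99 FPKM in KO. Rpl7 was at 196 ± 15.4 and Rpl7l1 at 108 ± 19.7 FPKM in WT, and at 182 ± 12.2 and 101 ± 11.6 FPKM in KO. Rps4x was at 393 ± 61.5 FPKM in WT and 361 ± 59 FPKM in KO, with Rps4l, annotated as a transcribed pseudogene, at 17.1 ± 2.46 and 18.2 ± 4.33 FPKM. The tissue-restricted paralogs were at or near 0: Rpl10l had 0 counts, Rpl39l 1, and Rpl3l 8, all in KO replicate 1. Per-length levels rest on 1 deposited length per gene, from 404 to 11869 nt among the members.

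The 47 members with a pyrimidine run near the start had a median log2 fold change of -0.30 with 41 lower, and the 13 without one had -0.32 with 12 lower. The 12 members with the ETS core, in either direction of the strand, had a median of -0.44 with 11 lower, and the other 48 had -0.29 with 42 lower. These medians are descriptions, and the difference between them was not tested.

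Related genes were read from the same test. The other ribosomal subunit genes, among them Fau, which is made as a fusion with a ubiquitin-like protein, all had lower estimates (5 of 5), with a median of -0.44 and 0 called. Rpl36al, an autosomal relative of Rpl36a, was the highest of them at -0.24 ± 0.33. It was at 71.3, 69.3 and 122.5 CPM in WT and 58.7, 65.1 and 98.6 CPM in KO, which overlapped. The median of these 5 genes was -0.08 without WT replicate 3, -0.23 without KO replicate 1 and -0.73 without KO replicate 3.

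Of 20 other TOP genes, mostly elongation factors and initiation subunits, 18 had a lower estimate, with a median of -0.15, 0 called and 1 below without overlap, where 6.15% of all genes were. Nap1l1, a histone chaperone, was the lowest at -0.68 ± 0.29, and Eif4a2, a helicase of initiation, the highest at 0.21 ± 0.22. Eef1a1, which brings tRNA to the ribosome, differed by -0.00 ± 0.17. The median of the TOP genes was -0.05 without WT replicate 3, -0.02 without KO replicate 1 and -0.33 without KO replicate 3. Of 29 initiation and mTOR genes, 16 had a lower estimate with a median of -0.04 and 0 called. Without overlap, 1 lay below and 1 above, where 6.15% and 6.25% of all genes did. The lowest was Eif4ebp1 at -0.41 ± 0.24, the 1 below, and the highest Eif4e at 1.26 ± 0.49, whose groups overlapped. The 1 above was Mtor, named after its values were seen, at 0.60 ± 0.20 with an edgeR adjusted p of 0.676. The median of the 29 genes was 0.01 without KO replicate 1 and -0.07 without KO replicate 3. It was -0.06 without WT replicate 1 and -0.08 without WT replicate 3.

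Of 78 ribosome biogenesis genes 56 had a lower estimate, with a median of -0.19, 0 called, 8 below without overlap and 1 above, where 6.15% and 6.25% of all genes were below and above. Myc, which drives this programme in many cells, had the lowest estimate at -1.13 ± 0.36 with an edgeR adjusted p of 0.565. It was at 101, 110 and 218 CPM in WT and 43.8, 73.6 and 77.6 CPM in KO, without overlap. Ubtf, which opens the rDNA for polymerase I, was the highest at 0.57 ± 0.26. Without WT replicate 1 the median of the biogenesis genes was -0.06.

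Of 76 mitochondrial ribosomal protein genes 57 had a lower estimate, with a median of -0.16, 0 called and 9 below without overlap, where 6.15% of all genes were. The lowest was Mrpl47, at 15.1, 31.5 and 26.2 CPM in WT and 7.47, 10.9 and 8.26 CPM in KO, with an estimate of -1.45 ± 0.50 with an edgeR adjusted p of 0.677. The highest was Mrpl50 at 0.32 ± 0.43. Their median was -0.29 without WT replicate 2 and -0.11 without WT replicate 3. Of 19 p53 target and regulator genes 12 had a higher estimate, with a median of 0.28 and 0 called, from Phlda3 at -2.22 ± 1.20 to Fas at 2.03 ± 1.19. Without WT replicate 1 the median of the p53 genes was 0.12, and without WT replicate 3 it was 0.16.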

How the data were processed

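RNA was sequenced from 3 WT and 3 KO HSC samples. The authors deposited counts, raw reads per gene, and FPKM values, which differed by at most 0.0543% from count over gene length and column total. TopHat, HTSeq and mm10 are named in the submitters' processing notes; versions, annotation, strand setting and read length are not given in the sources used here. The labels name the SMART-Seq v4 kit and the methods the TruSeq kit.

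Counts were filtered with filterByExpr, scaled by TMM and tested with the quasi-likelihood test of edgeR 4.0.16 (R 4.3.3), KO against WT, with Benjamini-Hochberg adjustment over all genes tested; CPM values are TMM scaled. DESeq2 1.42.0 and limma 3.58.1 were alternatives. All were tested on simulated data, in which the planted changes were larger than the median shift of the members. Shifts of that size were not simulated. Each transcript's 50-base stretches were compared with GENCODE M21. Library pairs of a group differed by 24.4 to 50 chi-square per degree of freedom.

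The named genes were the P stalk, paralog pairs, 8 genes chosen for their roles, the 5 highest and 5 lowest estimates, the 5 of highest FPKM, and up to 5 of largest estimate without overlap, with Med23 and, of each related list, the extremes and called genes. Members and lists were chosen with earlier results of these data known. Some genes are counted in the totals and medians but are not reported here by name.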

Additional observations from a re-analysis of the deposited data

How the results depend on the processing

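No member was called at an adjusted p under 0.05 under any of 13 alternatives of scaling, test, filter, FPKM and count minimum, nor with any library left out or with the replicate block. The number of members with a lower estimate was 52 to 72 over the 13 alternatives (52 is of the members with at least 1000 counts), and the median log2 fold change -0.36 to -0.25; with libraries left out these were 57 to 75 and -0.55 to -0.12. The log2 ratio of the summed shares, -0.28, was -0.36 to -0.23 by 3 other measures and -0.41 to -0.14 with libraries left out. The median of all genes was -0.02 to 0.04 under the scalings.

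The main test did not pair the libraries by replicate number. With group means removed, the correlations of same-numbered WT and KO libraries were 0.170, 0.0325 and 0.170. Those of differently numbered libraries ran from -0.17 to 0.035, so replicates 1 and 3 stood above them and replicate 2 did not. The replicate 3 libraries also shared the lack of Y-linked counts, and whether the numbers mark true pairs was not settled. The block gave 71 lower members, a median of -0.32, 0 called and 19 at an unadjusted p under 0.05 against 3. The share of all genes at that p under the block is not given here. The 19 are therefore not read as particular to the members. Each of the 6 lists of related genes had 0 called with the block, as without it. The marker lists were not run under the block.

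The sign turned under voom for Rpl11 (-0.0703), Rpl9 (-0.44), Rpl5 (0.0012) and Rps27 (0.22). With a library left out the ranges were -0.11 to 0.34 for Rpl15, -0.26 to 0.44 for Rpl11, -0.19 to 0.61 for Rpl9, -0.12 to 1.13 for Rpl27a, -0.35 to 0.20 for Rpl5, -0.63 to 0.0412 for Rpl38, -0.19 to 0.26 for Rpl10, -0.54 to 0.49 for Rps27, -0.35 to 0.0222 for Rps4x, -0.41 to 0.15 for Rpl22l1 and -0.11 to 0.21 for Rps4l. The cause was not tested. At 3 libraries per group the median SE of members under 1000 counts was 0.52, above the median difference.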
